A study of Mus musculus with 13 samples.

Results

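The genes described here are 10 members of the Notch pathway, measured in a mouse pre-B cell line that had received Ikaros. They are the receptor genes Notch1, Notch2 and Notch3, the nuclear partners Rbpj and Maml1, and the reported target or feedback genes Hes1, Dtx1, Dtx4, Nrarp and Ptcra. Dtx4 is the annotation's symbol for the gene also written Deltex4. Every probe set annotated to 1 of these symbols alone was taken, whatever its value, out of 21579 genes with such a probe set on either array type. The genes had 20 probe sets on the 430 2.0 array and 11 on the Gene 1.0 ST array, of which 16 and 10 passed a filter that left out the lowest 40% of probe sets by mean value.

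The cells were B3, an established mouse pre-B line, and all of them carried a retroviral construct that also encodes GFP behind an internal ribosome entry site. In the induced experiment, B3 cells carried HA-tagged Ikaros fused to ERt2, a part of the oestrogen receptor that is switched on by 4-hydroxytamoxifen, and RNA was taken after 2 h and after 6 h of that drug. Their controls carried ERt2 alone and received 4-hydroxytamoxifen as well, with arrays at 6 h. Each of these 3 groups had 3 Gene 1.0 ST arrays. In the constitutive experiment, B3 cells carried HA-tagged wild-type Ikaros (Ikaros) or 159A, an HA-tagged Ikaros mutant deficient in DNA binding, and RNA was taken 48 h after infection on 2 arrays of type 430 2.0 a group. Neither a vector group at 2 h nor untreated Ikaros-ERt2 cells are among the samples, so at 2 h time in the drug and the construct cannot be told apart. At 6 h the time in the drug is matched. A difference already there before the drug cannot be told apart from a response to it. The mutant group is no cell without the construct, since 159A is itself an Ikaros protein. All values come from 1 cell line and from forced expression. The title of vector-ERt2 replicate 1 gives it as a vector array, but a second label of the same sample gives inducible Ikaros. Ikzf1, which encodes Ikaros, read 9.16 on that array, against 9.25 and 9.39 on the other 2 vector arrays and a mean of 13.28 at 2 h and 13.26 at 6 h in Ikaros-ERt2 cells, all on the log2 scale. At 48 h both constructs encode Ikaros, and the Ikzf1 probe sets disagree. 1421303_at read 12.00 and 12.08 in Ikaros cells, against 11.82 and 11.61 in 159A cells, and 1436312_at read 4.11 and 4.77 in Ikaros cells, against 12.83 and 12.73 in 159A cells.

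Notch receptors are cut by gamma-secretase after they bind a ligand on a neighbouring cell. The released intracellular domain enters the nucleus and joins the DNA-binding protein Rbpj and a Mastermind co-activator, which turns on genes such as Hes1. In lymphoid cells Notch1 directs progenitors to the T lineage, and Ikaros, a zinc-finger factor of lymphocytes, is known to bind DNA with a core that overlaps the one Rbpj binds.

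Promoters are shown here because of that overlap. RefSeq windows from 250 bases before to 50 bases after a gene's start, on build GRCm38.p6, were found for 8 of the 10 genes, in 9 windows. No window was found for Hes1 and Dtx4. The motif TGGGAA, searched on both strands and shown in capitals in the 5' to 3' sequences of the gene's strand, was present in the windows of 2 of those genes, Ptcra and Rbpj. Of all 32851 windows of this length, 25.56% held the motif and 3.79% held it at least 2 times. Counted by gene, 28.31% of 27025 genes held it, so 2 of 8 is no more than that share. Ptcra has 2 matches on its own strand, starting at positions -84 and -32 from the start, in chr17:46763663-46763962 on the minus strand. The first Rbpj window, chr5:53590096-53590395 on the plus strand, also has 2, starting at -149 on the gene's strand and at -65 on the opposite one. The windows of Notch1 (chr2:26503773-26504072, minus strand) and Nrarp (chr2:25180508-25180807, plus strand), 2 genes with large differences at 48 h, hold no such letters. Rbpj, which holds them, was also lower in Ikaros cells at 48 h on probe set 1448957_at (log2 change -0.66). A link between the motif and the changes was not tested. A match is a string of letters and not a measured binding site.
Ptcra: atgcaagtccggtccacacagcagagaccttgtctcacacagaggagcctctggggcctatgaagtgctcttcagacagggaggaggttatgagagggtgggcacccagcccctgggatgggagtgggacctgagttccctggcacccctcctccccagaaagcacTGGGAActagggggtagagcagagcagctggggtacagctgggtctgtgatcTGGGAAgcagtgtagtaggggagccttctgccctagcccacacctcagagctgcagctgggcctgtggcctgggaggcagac
Rbpj: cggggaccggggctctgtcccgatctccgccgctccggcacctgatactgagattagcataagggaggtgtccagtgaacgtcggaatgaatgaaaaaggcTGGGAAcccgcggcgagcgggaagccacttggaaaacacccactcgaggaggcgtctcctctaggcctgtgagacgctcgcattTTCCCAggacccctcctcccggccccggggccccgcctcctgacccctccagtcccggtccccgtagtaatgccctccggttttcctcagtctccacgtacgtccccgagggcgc
Notch1: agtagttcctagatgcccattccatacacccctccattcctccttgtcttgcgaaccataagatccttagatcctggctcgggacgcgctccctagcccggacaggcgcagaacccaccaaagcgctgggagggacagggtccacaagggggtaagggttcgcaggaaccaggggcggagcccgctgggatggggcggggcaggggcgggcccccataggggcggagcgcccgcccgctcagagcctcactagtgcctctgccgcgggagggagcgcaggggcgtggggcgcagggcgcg
Nrarp: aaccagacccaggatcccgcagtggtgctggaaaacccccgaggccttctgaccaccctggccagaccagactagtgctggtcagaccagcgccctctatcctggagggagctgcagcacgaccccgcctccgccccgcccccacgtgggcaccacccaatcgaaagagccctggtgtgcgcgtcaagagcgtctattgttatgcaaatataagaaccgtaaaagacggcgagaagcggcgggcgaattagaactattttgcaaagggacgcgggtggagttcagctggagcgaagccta

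The RNA as a whole read as that of pre-B cells, and the Cd3 genes of the T-cell receptor complex lay at or near the floor at 48 h. Each marker gene was counted by its probe set with the highest mean. All 9 pre-B marker genes on the 430 2.0 array lay above the array median in both groups. The lowest of these means was 7.17 in Ikaros cells and 5.24 in 159A cells. Dimmer probe sets of Pax5, Cd22 and Igll1 lay near the floor in both groups. On Gene 1.0 ST 7 of 9 did so in each group, and Rag1 and Cd22 did not. Of 9 T-cell marker genes, 5 in Ikaros cells and 4 in 159A cells lay above the 430 2.0 median, which itself is near the lowest value. In each Gene 1.0 ST group 3 of 9 lay above the median of that array type, which were Cd3e, Zap70 and Cd28. On the 430 2.0 array 5 of the 9 lay near the lowest value in each group, Cd3e, Cd3d and Cd3g among them. The highest was Cd28, with a mean of 7.66 in Ikaros cells and 10.36 in 159A cells. On the 430 2.0 array 36.7% of the values lie within 0.01 of a floor of 2.19, so a value up to 3.19, that is within 1 log2 unit of the floor, is treated as near the floor and a fold against such a group is a bound, taken against that limit.

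Each probe set was tested with limma, and it is called changed where the p-value adjusted over all probe sets tested on its array type is under 0.05. After induction, 216 of 13073 probe sets were called at 2 h and 700 at 6 h, which is 1.65% and 5.35%. At 48 h 1921 of 20975, or 9.16%, were called. Levels are log2 values as deposited, changes are differences of these, and the error after a change is the standard error of the fit. A rise or fall here is a difference between groups, not a change from before the drug or infection.

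No receptor passed the test in the induced experiment as fitted without pairing, and Notch1 passed at 2 h with the replicate number as a block. Notch1 (probe set 10481056, chr2:26457902-26503822) read 8.49, 8.09 and 8.28 at 2 h and 8.61, 8.09 and 8.09 at 6 h in Ikaros-ERt2 cells, against 7.72, 7.75 and 7.74 in vector-ERt2 cells. All 6 Ikaros-ERt2 arrays lay above all 3 vector arrays. The change was 0.55 ± 0.14 at 2 h (limma adjusted p = 0.0887) and 0.53 ± 0.14 at 6 h (limma adjusted p = 0.057), a 1.46-fold and a 1.44-fold higher mean. Deviations of same-numbered arrays correlated over 0.1 in all 3 pairs of the 2 h and vector groups. The titles give only replicate numbers, and the block also took in the 6 h arrays, whose numbers were not shown to pair. With the block the 2 h adjusted p of Notch1 was 0.0439. At 6 h it crossed the threshold with a 60% filter (adjusted p = 0.0419) and when the arrays were quantile normalized again (adjusted p = 0.0347). It also did so at 6 h with the block (limma adjusted p = 0.0278) and centred on the median of the tested probe sets (limma adjusted p = 0.0446). At 2 h Notch1 crossed it when only the groups compared were fitted (adjusted p = 0.0493). With 1 array left out at a time, the 2 h change ran between 0.45 and 0.65 and the 6 h change between 0.35 and 0.61, and the 2 h change passed in 1 of 9 such fits, without Ikaros-ERt2 6 h replicate 1 (adjusted p = 0.0283).

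Notch2, the receptor needed for marginal zone B cells, read 6.99, 6.64 and 7.13 at 2 h and 7.08, 6.97 and 7.10 at 6 h, against 6.72, 6.82 and 6.88 in vector-ERt2 cells (probe set 10494595). The 6 h arrays lay above the vector arrays and the 2 h arrays overlapped them, with changes of 0.11 ± 0.11 at 2 h and 0.24 ± 0.11 at 6 h (limma adjusted p = 0.737 and 0.308). Notch3, a receptor with a known role in early thymocytes, had means of 5.62 at 2 h and 5.65 at 6 h, against 5.73 in vector-ERt2 cells (SD 0.071, 0.11 and 0.069, n = 3 each). Its groups overlapped at both times.

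Neither nuclear partner passed the test after induction. Rbpj, the DNA-binding partner of the cut receptor, read 8.01, 7.84 and 8.04 at 2 h and 7.76, 8.01 and 7.92 at 6 h, against 8.19, 8.01 and 8.26 in vector-ERt2 cells (probe set 10521913). These groups overlap, and the change at 6 h was -0.26 ± 0.09 (limma adjusted p = 0.165). A second Rbpj probe set, 10521911, was left out by the filter, with values from 3.90 to 4.25 over the 9 arrays. Maml1, the Mastermind co-activator, had means of 6.57 at 2 h and 6.60 at 6 h, against 6.52 in vector-ERt2 cells, and its 3 arrays at 2 h hold 1 identical value.

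**Figure D1:**
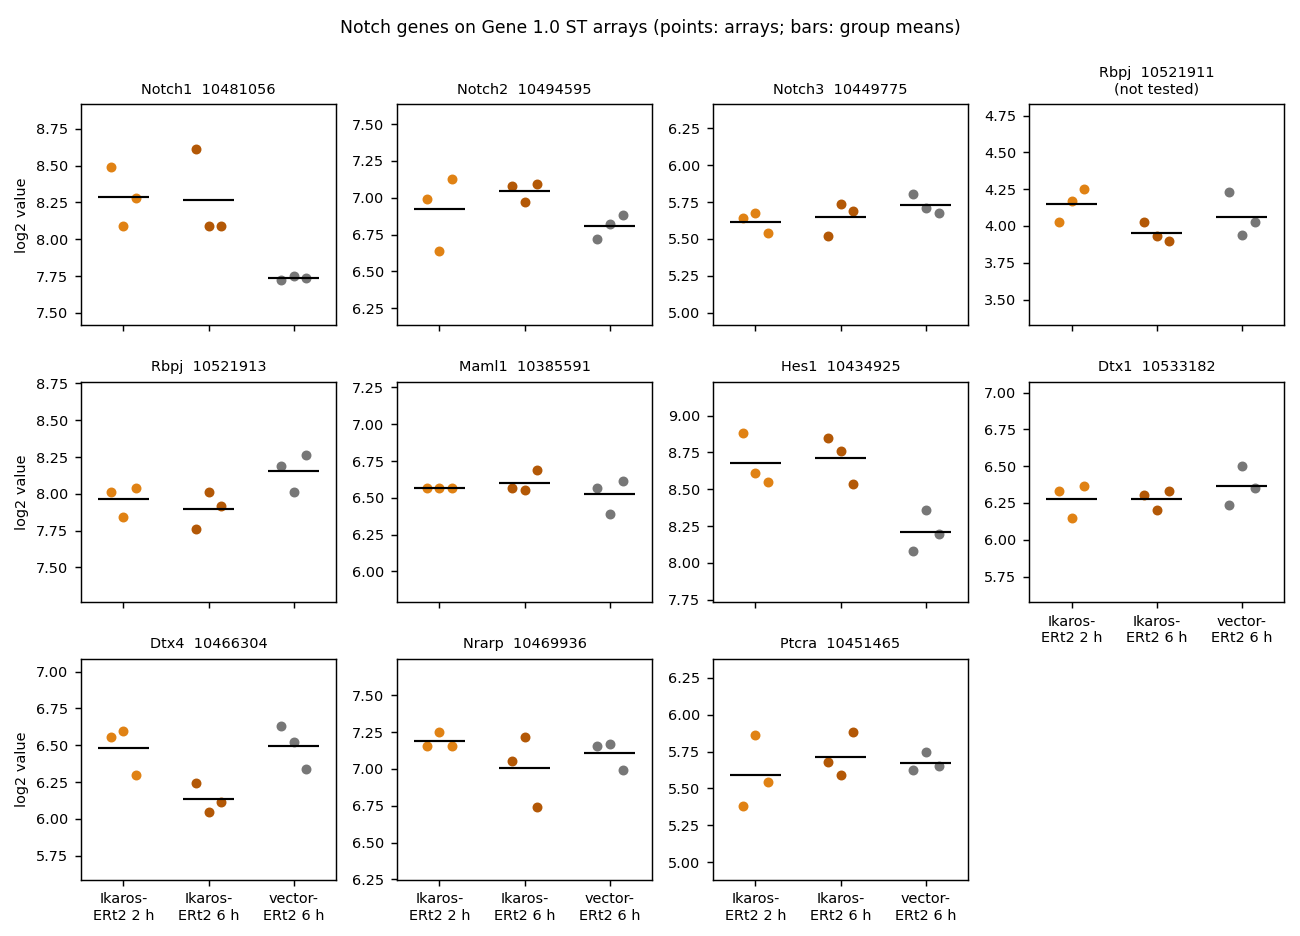
Log2 value of each Notch gene on the Gene 1.0 ST arrays, with 1 panel per probe set, 1 point per array and a bar at the group mean. All panels span the same number of log2 units. The 6 Ikaros-ERt2 points of Notch1 lie at 8.09 or above and the vector-ERt2 points at 7.75 or below, Hes1 shows the same order, and Dtx4 is lower at 6 h than at 2 h or in the vector group.

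Hes1 is a transcriptional repressor and a widely used readout of Notch activity. It was the 1 gene of the 10 that passed the test after induction in the fit without pairing. It lay higher than in vector-ERt2 cells. Probe set 10434925 (chr16:30065357-30067796) read 8.88, 8.61 and 8.55 at 2 h and 8.85, 8.76 and 8.54 at 6 h in Ikaros-ERt2 cells, against 8.08, 8.36 and 8.19 in vector-ERt2 cells. Every Ikaros-ERt2 array lay above every vector array, and the 2 h and 6 h arrays overlapped one another. The change was 0.50 ± 0.11 at 6 h, a 1.42-fold higher mean (limma adjusted p = 0.0284). At 2 h it was 0.47 ± 0.11 and did not pass (limma adjusted p = 0.0722). With 1 array left out at a time the 6 h change stayed between 0.44 and 0.59, and the call held in 5 of 9 such fits, being lost without Ikaros-ERt2 6 h replicate 1 or 2 and without vector-ERt2 replicate 1 or 3 (adjusted p from 0.0201 to 0.13). It was also lost with no filter on low values (adjusted p = 0.0519) and when unnamed probe sets were tested as well (adjusted p = 0.0876). The 3 probe sets of other genes whose values followed Hes1 most closely over the 9 arrays were those of Ezr, Arl2bp and Car13, with Pearson r of 0.967, 0.965 and 0.963, given as a description over arrays that share their groups.

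Dtx4, a member of the Deltex family of ubiquitin ligases, was the gene whose 2 h and 6 h arrays stood apart. It read 6.55, 6.60 and 6.30 at 2 h and 6.24, 6.04 and 6.11 at 6 h, against 6.63, 6.52 and 6.34 in vector-ERt2 cells (probe set 10466304). The 6 h arrays lay below all others. The change at 6 h was -0.36 ± 0.10 against the vector group (limma adjusted p = 0.0773, and 0.0438 after a further quantile normalization) and -0.35 ± 0.10 against 2 h (limma adjusted p = 0.156).

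For the other 3 target genes the groups overlapped at both times. Nrarp, an ankyrin-repeat protein that dampens Notch signalling and is induced by it, read 7.16, 7.25 and 7.15 at 2 h and 7.06, 7.22 and 6.74 at 6 h, against 7.15, 7.17 and 6.99 in vector-ERt2 cells. Its 95% interval for the 6 h change runs from -0.34 to 0.14. Dtx1, another Deltex gene, had means of 6.28 at both 2 h and 6 h, against 6.36 in vector-ERt2 cells. Ptcra, which encodes the alpha chain paired with the T-cell receptor beta chain in immature thymocytes, had means of 5.59 at 2 h and 5.72 at 6 h, against 5.67 in vector-ERt2 cells (SD 0.25, 0.15 and 0.065, n = 3 each).

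Counts for the 10 tested probe sets are set beside the shares over the whole array, and the difference was not tested. At 2 h limma called 0 of 10 (1 of 10 with the replicate block), and at 6 h it called 1 of 10 higher and 0 lower. An unadjusted p under 0.05 was found for 2 of 10 at 2 h and 4 of 10 at 6 h, against 14.1% and 17.3% of all tested probe sets. Of all tested probe sets 0.665% were called higher and 0.987% lower at 2 h, and 2.36% higher and 2.99% lower at 6 h. Groups did not overlap for 2 higher and 0 lower at 2 h, where 9.38% and 9.23% of all probe sets did the same. At 6 h there were 3 higher and 1 lower, against 10.6% and 10.3% of all probe sets. The median change was 0.01 at 2 h and -0.02 at 6 h, with -0.006 and -0.002 over all tested. Between 6 h and 2 h limma called 0 of 10, 1 of which had an unadjusted p under 0.05 (13.6% of all), while 0.75% of all probe sets were called, 0.321% higher and 0.428% lower. Groups did not overlap for 0 higher and 1 lower, against 7.6% and 7.08% of all. The 2 h and 6 h comparisons share the vector arrays.

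At 48 h several of the same genes lay lower in Ikaros cells than in 159A cells, and 2 probe sets passed the test. Notch1 probe set 1418634_at fell to 9.56 and 9.42 in Ikaros cells, against 10.69 and 10.57 in 159A cells. The change of -1.14 ± 0.09 is a mean 2.21-fold lower in Ikaros cells (limma adjusted p = 0.0348). A dimmer Notch1 probe set, 1418633_at, read 5.90 and 5.14 in Ikaros cells, against 6.90 and 5.80 in 159A cells. These groups overlap, and its change of -0.83 ± 0.58 did not pass (limma adjusted p = 0.486). In RNA of a whole culture, fewer cells that express a gene and less of its RNA per cell cannot be told apart.

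With any 1 of the 4 arrays left out, the change of Notch1 1418634_at stayed between -1.21 and -1.08. Such fits call no probe set of any gene at 48 h, so they do not test a single call. With no filter on low values, where 95 probe sets in all were called, the adjusted p of Notch1 was 0.1, and no 48 h call named here held.

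Notch2 was bright in both groups on 1 of its 2 probe sets. 1455556_at read 11.71 and 11.33 in Ikaros cells, against 11.18 and 11.04 in 159A cells, a change of 0.41 ± 0.18 (limma adjusted p = 0.306). The other, 1451889_at, and both probe sets of Notch3 sat at the floor on all 4 arrays, so they give no change.

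Among the nuclear partners, Rbpj probe set 1448957_at fell to 7.55 and 7.56 in Ikaros cells, against 8.29 and 8.15 in 159A cells. This change of -0.66 ± 0.07, a mean 1.58-fold lower, passed the test narrowly (limma adjusted p = 0.0484). The call was lost under every alternative with all 4 arrays that kept this probe set, among them a repeated quantile normalization (adjusted p = 0.0542), a 60% filter (adjusted p = 0.0893) and no filter (adjusted p = 0.123). The brightest Rbpj probe set, 1454896_at, read 9.61 and 9.61 in Ikaros cells, against 9.95 and 9.73 in 159A cells, with no overlap and a change of -0.23 ± 0.10 (limma adjusted p = 0.323). The third, 1418114_at, had 1 of its Ikaros arrays near the floor and its groups overlapped.

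Maml1 had a higher mean in Ikaros cells without passing the test. Probe set 1426769_s_at, whose suffix marks probes that may match more than 1 transcript, read 10.82 and 10.12 in Ikaros cells, against 9.79 and 9.70 in 159A cells. Its change was 0.73 ± 0.31 (limma adjusted p = 0.293). Probe set 1452188_at overlapped between the groups, and 1441697_at sat near the floor on all arrays.

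**Figure D2:**
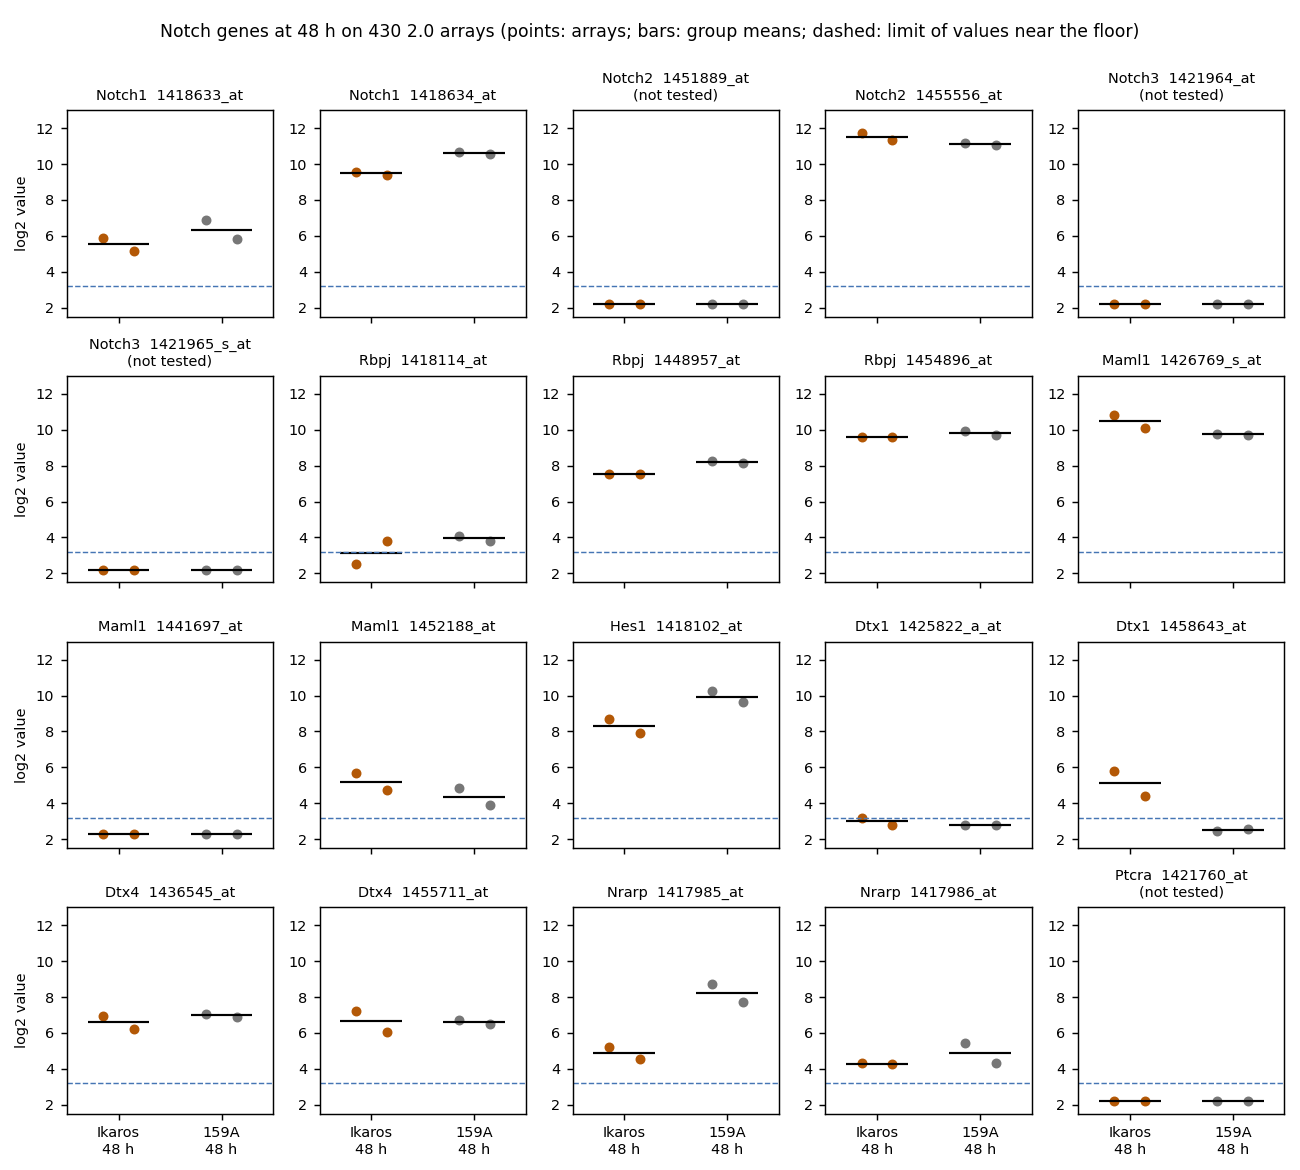
Log2 value of each Notch probe set at 48 h on the 430 2.0 arrays, 1 point per array and a bar at the group mean, with all panels on 1 scale and a dashed line at 3.19, the limit for values near the floor. Notch1 1418634_at, Hes1 and Nrarp 1417985_at are lower in Ikaros cells, Dtx1 1458643_at is higher, and 6 of the 20 probe sets lie near the floor on all 4 arrays.

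The target genes had the widest gaps at 48 h, and none of these passed the test. Nrarp probe set 1417985_at read 5.22 and 4.55 in Ikaros cells, against 8.73 and 7.75 in 159A cells. The groups lie far apart, with a change of -3.36 ± 0.51 and a mean 10.3-fold lower in Ikaros cells, while the 2 arrays of 159A cells differ by about 1 log2 unit (limma adjusted p = 0.073). It passed with a 60% filter (adjusted p = 0.0202) and when the arrays were centred on their median or on the median of the tested probe sets (adjusted p = 0.0482 and 0.0338). The second Nrarp probe set, 1417986_at, read 4.30 and 4.27 in Ikaros cells, against 5.46 and 4.31 in 159A cells, a much smaller change of -0.60 ± 0.50 (limma adjusted p = 0.546).

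Hes1 probe set 1418102_at read 8.72 and 7.90 in Ikaros cells, against 10.23 and 9.62 in 159A cells. Both Ikaros arrays lay below both 159A arrays, with a change of -1.62 ± 0.44 and a mean 3.06-fold lower (limma adjusted p = 0.161). At 6 h of induction the same gene had been above the vector group, and so had Notch1. Vector and 159A are different references, and the array type, the construct and the time differ too, so the difference between the experiments was not tested.

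Dtx1 was the gene with a large difference upward. Probe set 1458643_at read 5.78 and 4.42 in Ikaros cells, against 2.42 and 2.54 in 159A cells, where it was near the floor. The Ikaros mean is at least 3.75-fold higher, or at least 2.34-fold without Ikaros replicate 1 and 6.01-fold without Ikaros replicate 2, and the test was not passed (limma adjusted p = 0.122). The other Dtx1 probe set, 1425822_a_at, lay near the floor on all 4 arrays. For Dtx4, probe set 1436545_at read 6.96 and 6.22 in Ikaros cells, against 7.08 and 6.91 in 159A cells, and 1455711_at read 7.22 and 6.08 in Ikaros cells, against 6.70 and 6.48 in 159A cells. Both overlap between the groups. Ptcra sat at the floor in both groups.

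Over the 16 tested probe sets at 48 h, limma called 0 higher and 2 lower, with 3.78% and 5.38% of all tested probe sets called. An unadjusted p under 0.05 was found for 5 of 16, against 27.8% of all. Groups did not overlap for 3 higher and 6 lower, against 25.1% and 27% of all. The median change was -0.32, and it was 0 over all tested probe sets. When the arrays were centred on the median of the tested probe sets, every change at 48 h moved up by 0.12.

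**Figure D3:**
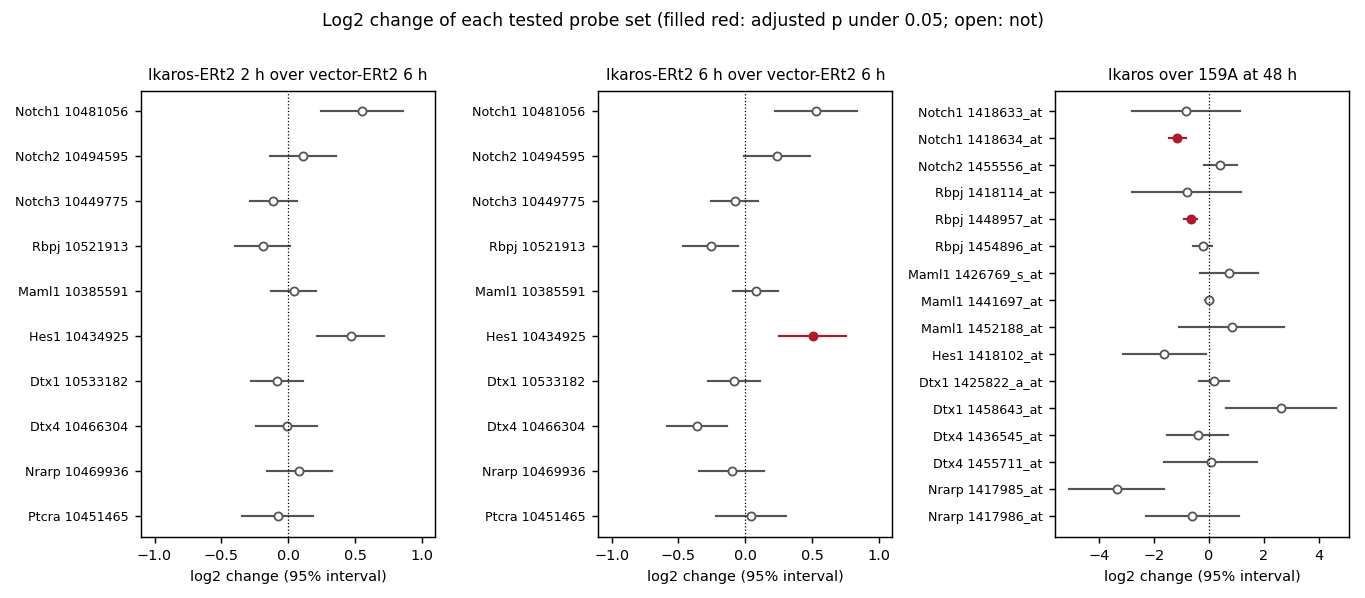
Log2 change of every tested probe set of the Notch genes in 3 comparisons, with bars for the 95% interval of the fit and a wider axis for the 48 h panel. Filled red points have an adjusted p under 0.05, which are Hes1 at 6 h (0.50), and Notch1 1418634_at (-1.14) and Rbpj 1448957_at (-0.66) at 48 h.

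Beyond these 10 genes, 56 others of the pathway were listed by role, of which 46 were tested on Gene 1.0 ST and 42 on 430 2.0. At 2 h limma called 0 genes higher and 2 lower, at 6 h 1 higher and 3 lower, and at 48 h 3 higher and 4 lower. A gene counts here if any of its probe sets was called. In probe sets these were 0 higher and 2 lower of 50 at 2 h, 1 and 3 of 50 at 6 h, and 5 and 5 of 74 at 48 h. Those lower at 2 h and at 6 h include Il2ra, which passed the filter only through the vector arrays. Those lower at 48 h include Jag2 probe set 1426431_at, which passed it only through the 159A arrays. Over all tested probe sets the shares called higher and lower were 0.665% and 0.987% at 2 h, 2.36% and 2.99% at 6 h, and 3.78% and 5.38% at 48 h. The median change over their probe sets was -0.004 at 2 h, 0.03 at 6 h and 0.14 at 48 h. By role at 48 h, limma called 1 of 3 ligand genes lower, 1 of 8 receptor processing genes higher, 1 of 4 co-activator genes higher and 1 lower, and 1 of 6 other target genes higher and 2 lower. The other receptor gene, Notch4, was higher in Ikaros cells without overlap but was not called (probe set 1436901_at, change 1.48 ± 0.18, limma adjusted p = 0.0527). Its groups overlapped at 2 h and at 6 h. Limma called 0 of the tested co-repressor, sugar modification and turnover genes at 48 h. Of their probe sets 4 had an unadjusted p under 0.05, all of them in the turnover list. Between 6 h and 2 h limma called 0, and 7 of 50 probe sets had an unadjusted p under 0.05.

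After induction the co-activator gene Maml3, a relative of Maml1, lay higher than in vector-ERt2 cells. It read 7.04, 7.17 and 7.21 at 2 h and 7.66, 7.49 and 7.69 at 6 h, against 6.56, 6.995 and 6.82 in vector-ERt2 cells (probe set 10498076). The 6 h arrays lay above all others, and the change at 6 h was 0.82 ± 0.11, a 1.77-fold higher mean (limma adjusted p = 0.00182). With 1 array left out at a time it stayed called in 9 of 9 fits, between 0.70 and 0.92. The 2 h change of 0.35 ± 0.11 did not pass (limma adjusted p = 0.168).

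Lfng, a sugar transferase that modifies Notch receptors and alters their response to ligands, read 6.39, 6.14 and 6.33 at 2 h and 6.34, 6.18 and 6.41 at 6 h, against 6.53, 6.83 and 6.81 in vector-ERt2 cells. Its change of -0.42 ± 0.10 at 6 h passed narrowly (limma adjusted p = 0.0448), and at 2 h it was -0.44 ± 0.10 (limma adjusted p = 0.0688). The 6 h call held in 2 of 9 fits with an array left out, and with no filter the adjusted p was 0.0779. The remaining genes called lower were Myc, a growth regulator that Notch1 induces in T-lineage leukaemia, and Il2ra, the alpha chain of the interleukin-2 receptor. Myc changed by -1.32 ± 0.15 at 2 h and -1.46 ± 0.15 at 6 h, and Il2ra by -0.78 ± 0.10 at 2 h and -0.75 ± 0.10 at 6 h (limma adjusted p from 0.000548 to 0.00525 over these 4 changes). Il2ra was dim, with means of 5.05 at 2 h and 5.08 at 6 h, against 5.83 in vector-ERt2 cells. Both Ikaros-ERt2 means lie below the filter limit of 5.11, so Il2ra passed the filter only through the vector arrays. The 10 tested probe sets for receptor processing and gamma-secretase, of 8 genes with Aph1a and Psenen counted 2 times, had a positive change in 5 of 10 at 2 h and 10 of 10 at 6 h, against 47.8% and 49.3% of all tested. Their median was -0.0007 at 2 h and 0.09 at 6 h, and limma called 0 of them at 6 h, 3 having an unadjusted p under 0.05.

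At 48 h Aph1b, which encodes a subunit of gamma-secretase, rose. Probe set 1456500_at read 10.11 and 10.46 in Ikaros cells, against 6.61 and 7.10 in 159A cells, a 10.8-fold rise (change 3.43 ± 0.26, limma adjusted p = 0.0345). Its other probe set, 1435793_at, read 8.97 and 9.10 in Ikaros cells, against 4.00 and 5.26 in 159A cells (limma adjusted p = 0.0557). At 6 h Aph1b read 6.13, 6.32 and 6.17 in Ikaros-ERt2 cells, against 5.87, 5.84 and 5.26 in vector-ERt2 cells, with no overlap and a change of 0.55 ± 0.15 (limma adjusted p = 0.0642). Other genes called at 48 h alone were Kat2a, Kat2b, Jag2 and Hes5. At 6 h Kat2a was lower without overlap (change -0.31, limma adjusted p = 0.0687). The groups of Kat2b, Jag2 and Hes5 overlapped at 6 h, with changes of 0.01, 0.09 and 0.03.

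The acetyltransferase pair Kat2a and Kat2b, both reported co-activators of Notch, moved in opposite directions at 48 h. Kat2a probe set 1422972_s_at fell to 3.98 and 3.38 in Ikaros cells, against 6.83 and 7.12 in 159A cells (change -3.30 ± 0.29, limma adjusted p = 0.0396), and the brighter 1426783_at had a change of -2.19 ± 0.26 (limma adjusted p = 0.0536). Kat2b probe set 1434037_s_at rose to 12.05 and 12.13 in Ikaros cells, against 11.13 and 10.90 in 159A cells (change 1.07 ± 0.12, limma adjusted p = 0.0473). Kat2b probe set 1457809_at, near the floor in 159A cells, was at least 1.83-fold higher in Ikaros cells (limma adjusted p = 0.0259). A dimmer Kat2b probe set, 1450821_at, overlapped between the groups (change 0.14 ± 0.12, limma adjusted p = 0.554). When unnamed probe sets were tested as well, the calls of Kat2a 1422972_s_at and Kat2b 1434037_s_at were lost (adjusted p = 0.0509 and 0.0596).

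Jag2, a Notch ligand, fell on both of its called probe sets. 1426430_at read 3.40 and 3.37 in Ikaros cells, against 4.32 and 4.52 in 159A cells (change -1.04 ± 0.10, limma adjusted p = 0.0416). 1426431_at was at least 2.27-fold lower in Ikaros cells, where it was near the floor (limma adjusted p = 0.0259). The Ikaros mean of 1426431_at, 2.24, lies below the filter limit of 2.29, so it passed the filter only through the 159A arrays. Hes5, a relative of Hes1, fell on 1423146_at to 3.41 on both Ikaros arrays, against 4.51 and 4.58 in 159A cells (change -1.13 ± 0.05, limma adjusted p = 0.025). As its Ikaros values are identical, the spread comes from 159A cells alone and the p can be too small. The brighter Hes5 probe set, 1456010_x_at, read 7.69 and 7.17 in Ikaros cells, against 8.86 and 9.58 in 159A cells (limma adjusted p = 0.114). Myc fell (change -2.86 ± 0.10, limma adjusted p = 0.0229) and Il2ra rose, at least 64.5-fold on 1420692_at (limma adjusted p = 0.0321) and at least 3.51-fold on 1420691_at (limma adjusted p = 0.0229), both near the floor in 159A cells. After induction Il2ra had been lower than in the vector group, with means below the filter limit, and the difference between the experiments was not tested.

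**Figure D4:**
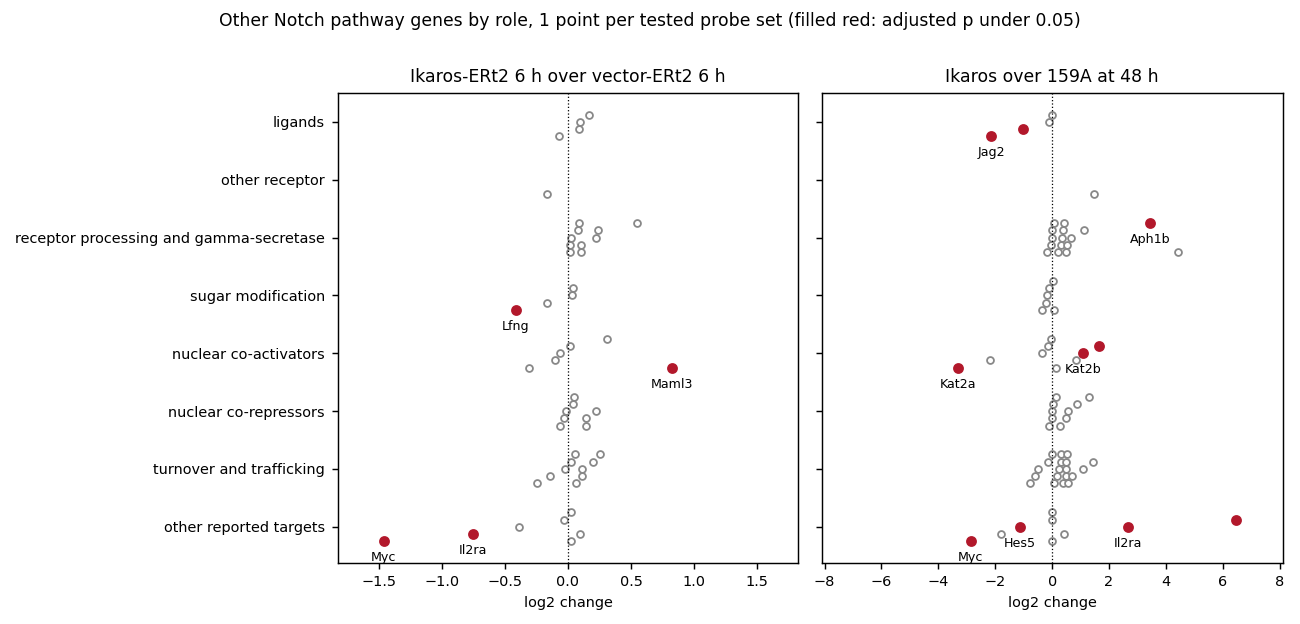
Log2 changes of the other Notch pathway genes by role, 1 point per tested probe set, at 6 h (left) and at 48 h (right, wider axis). Filled red points have an adjusted p under 0.05 and are named once per gene, and the other points are open. At 6 h Maml3 (0.82) is called higher, and Lfng, Il2ra and Myc are called lower, than in the vector group.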

How the data were processed

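RNA of B3 cells was measured on 4 Affymetrix 430 2.0 and 9 Gene 1.0 ST arrays, with amplification by a two-cycle cDNA kit and a whole-transcript kit, per the labels' protocols. The deposited values are log2 values, 1 per probe set and array, and were used without further scaling. The submitters' processing notes name affy, GCRMA, RMA and limma, with no role or version, and no settings were found in the labels or headers. A floor in the values hides changes of dim genes.

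Gene symbols came from the annotation of each platform (34958 and 21789 with 1 symbol), and the rest were not used. Titles gave the groups and name biological replicates. Separate cultures are not mentioned, so a p-value here reflects only how these samples spread, which may be technical, and precision is limited by how few arrays there are. Tests were two-sided moderated tests from limma 3.58.1 (under R 4.3.3), with p-values adjusted by the Benjamini-Hochberg method, run per array type, with the 3 Gene 1.0 ST comparisons from 1 fit, after leaving out the lowest 40% of probe sets by mean. The scripts were tested on simulated data.

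The genes, the role and marker lists and the rules were chosen with earlier results of these data known. Every probe set of the 10 genes was described. Other pathway genes were named where called. Aph1b, Kat2a, Kat2b, Lfng, Maml3, Hes5 and Jag2 were also given in further comparisons or probe sets, chosen after their values were seen. Notch4, which was not called, was added after its values were seen. Alternatives were no filter, a 60% filter, quantile normalization, centring, trended robust eBayes, a replicate block, 1 probe set per gene, every probe set, only the groups compared, and each array left out. Centring on the tested probe sets was added after seeing the data. Replicate numbers in the titles were taken to pair the groups compared where, with at least 3 pairs, deviations of same-numbered arrays from their group means all correlated over 0.1. From the data alone this held for 2 h and vector (0.122, 0.107 and 0.220), and not for 6 h and vector or 6 h and 2 h. The 48 h groups have only 2 pairs.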

Additional observations from a re-analysis of the deposited data

Results flagged for a closer look

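Notch1 lay higher in Ikaros-ERt2 than in vector-ERt2 cells at 6 h (log2 change 0.53, 3 of 3 arrays above all vector arrays) and lower in Ikaros than in 159A cells at 48 h (probe set 1418634_at, log2 change -1.14, 2 of 2 arrays below both 159A arrays). Hes1 did the same, with log2 changes of 0.50 at 6 h and -1.62 at 48 h and no overlap between groups in either experiment. These genes are singled out because, on the probe sets given, the groups lay apart one way in one experiment and the opposite way in the other. Of all tested probe sets, 10.6% lay higher without overlap at 6 h and 27% lower at 48 h. Notch1 at 6 h and Hes1 at 48 h did not pass the test (limma adjusted p = 0.057 and 0.161). The other Notch1 probe set, 1418633_at, overlapped between the groups at 48 h. The difference between the experiments was not tested, since the array type, the construct, the time and the cells set against Ikaros all differ.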

How the results depend on the processing

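Of the 10 Notch genes' tested probe sets, limma called 2 at 48 h, 0 at 2 h, 1 at 6 h and 0 for 6 h over 2 h. With no filter these became 0, 0, 0 and 0, and over all probe sets 95 were called at 48 h (1921 before), 141 at 2 h (216) and 56 for 6 h over 2 h (98). Quantile normalization gave 1 at 48 h and 3 at 6 h (Hes1, Notch1 and Dtx4), with 165 of all for 6 h over 2 h. The 60% filter gave 2 at 6 h. Centring on each array's median gave 121 of all at 2 h, 442 at 6 h (700) and 30 for 6 h over 2 h. Centring on the tested probe sets gave 2 Notch probe sets at 6 h and 163 of all for 6 h over 2 h, where the share of called probe sets that were higher was 29.4%, against 42.9% as deposited. Trended robust eBayes and 1 probe set per gene each left 1 at 48 h. With every probe set, named or not, 1 was called at 48 h and 0 at 6 h, with 89, 393 and 2 of all at 2 h, at 6 h and for 6 h over 2 h. With only the groups compared, 1 was called at 2 h (Notch1) and 0 of all for 6 h over 2 h. With the replicate number as a block, 0 were called at 48 h and 0 of all, 1 at 2 h (Notch1, adjusted p 0.0439) and 3 at 6 h (Hes1, Notch1 with adjusted p 0.0278, and Dtx4 with adjusted p 0.0444). At 2 h, where the numbers met the rule for pairing, the block changed no other call among the genes named. That fit also blocked the 6 h arrays, which did not meet the rule. Elsewhere the numbers were not shown to pair arrays: deviations correlated by 0.554 at 48 h, over 2 pairs, from -0.089 to 0.117 between 6 h and vector and from -0.249 to 0.248 between 6 h and 2 h.

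With 1 array left out at a time, the Notch probe sets called were 0 to 0 at 48 h, 0 to 1 at 2 h, 0 to 1 at 6 h and 0 to 0 for 6 h over 2 h, and over all probe sets 0 to 0, 76 to 264, 325 to 695 and 8 to 170. Log2 changes that crossed 0 in these fits were at 48 h those of Dtx1 1425822_a_at (-4.7e-05 to 0.36) and Dtx4 1455711_at (-0.51 to 0.63), at 2 h Maml1 (-0.025 to 0.088), Dtx4 (-0.091 to 0.082) and Ptcra (-0.21 to 0.028), and at 6 h Nrarp (-0.21 to 0.031) and Ptcra (-0.042 to 0.11). For 6 h over 2 h they were Notch1 (-0.20 to 0.080), Notch2 (-0.012 to 0.23), Notch3 (-0.015 to 0.095), Rbpj (-0.13 to 0.00013), Maml1 (-0.0057 to 0.062), Hes1 (-0.032 to 0.13) and Dtx1 (-0.068 to 0.041). The 2 h change of Dtx4, -0.012 as deposited, became 0.0054 after quantile normalization, 0.0071 centred on the median and 0.00027 centred on the tested probe sets. Of the alternatives' log2 changes of these genes, 691 kept direction and side of the threshold, 24 lost a call, 12 gained one and 25 changed sign. Of those of the other named genes, 332 kept both, 83 lost a call and 13 gained one. The causes were not tested. At 48 h, leaving out 1 array ends every call on the array type, so it says nothing about single genes, and changes of values near the floor have no exact size.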

Other observations

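Many deposited values are identical between arrays away from the floor as well. On Gene 1.0 ST, 53.54% of the 13073 tested probe sets hold the same value on at least 2 of 9 arrays, and 28.72% on at least 3. Among the Notch genes this is so for 6 and 3 of the 10 tested probe sets. Maml1 reads 6.57 on 5 arrays, Notch1 8.09 on 3 and Rbpj probe set 10521913 8.01 on 3, so that the SD of such a group can be 0 or understated. On 430 2.0, 22.19% of tested probe sets hold a value at least 2 times. What produced the identical values was not tested.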
